A study of Mus musculus with 16 samples.

Results

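The genes described here are 7 Toll-like receptor genes, Tlr1, Tlr2, Tlr3, Tlr4, Tlr6, Tlr7 and Tlr9, with Myd88, Cd180 and Ly86. They were chosen by the gene name printed in the scanner files, and all probes of that name were taken. The array carries 13 such probes for the 10 genes, and all 10 genes were among the 20469 genes tested. Mouse follicular B cells were hybridised on 16 Agilent arrays that carry both dyes, and each of 8 cell samples was run as a dye-swap pair against a common reference. The reference was a pool of 6 cell lines named R1, RS2, J558, EL4, DN3 and P388d, so that every value below is a log2 ratio of a B cell sample over that pool unless another scale is named. The study asks how engagement of the B cell receptor by self antigen changes mature B cells, and its title concerns the intracellular sensor Nod1.

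All 8 samples came from mice of strain C.B17 and are labelled as follicular B cells. The Auto.Neg group held 2 samples from mice with a VH3609µ/Vk21-5κ transgenic receptor against Thy-1 on a Thy-1 Knockout background, in which the antigen is absent. The Auto.Pos group held 2 samples from mice with a transgenic receptor against intestinal goblet cells, written VH3609µ/Vk19-17κ in one label and with Vkappa17-17kappa in another. The WT group held 2 samples of wild type mice. The Non-edited and Edited groups held 1 sample each, both from VH3609t +/- x Vk21-5Tg +/- mice on the Thy-1 Knockout background. Whether 2 samples of a group are from different mice is not stated in the labels, so the spread between them may be partly technical. Auto.Neg and Auto.Pos mice carry a heavy and a light chain transgene of a chosen receptor, which limits both as models of a mixed repertoire.

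Toll-like receptors recognise conserved microbial molecules. Tlr1, Tlr2, Tlr4 and Tlr6 work at the cell surface, where Tlr2 pairs with Tlr1 or Tlr6 to read bacterial lipoproteins and Tlr4 reads lipopolysaccharide with the co-receptor MD-2. Tlr3, Tlr7 and Tlr9 read nucleic acids in endosomes. Myd88 is the adaptor of all of them except Tlr3. Cd180, also called RP105, is a receptor of the same leucine-rich repeat family without the intracellular signalling domain, abundant on mature B cells. Ly86 encodes MD-1, the secreted partner that CD180 needs to reach the cell surface. In B cells Tlr7 and Tlr9 are best known for responses to self nucleic acids when the antigen receptor is engaged at the same time.

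Between 62.0% and 81.9% of probes were well above background in the sample channel of an array, and no probe was saturated. The Cy3 array of WT sample 2 was brighter than the rest, with a median net signal of 692 against 47.6 to 148 on the other 15 arrays. Without that sample, too, no gene was called in either comparison with WT. The 2 arrays of a sample correlated with r between 0.905 and 0.971 across kept probes. Auto.Neg sample 2 and Auto.Pos sample 1 were hybridised on the same slide and correlated with r of 0.978 across genes. Some samples on different slides reached similar values, with 0.976 for Auto.Neg sample 1 and Non-edited and 0.974 for Non-edited and Edited. All of these were scanned on the same day with the same version of the scanner software. Samples of the same group correlated less, with 0.903 (Auto.Neg), 0.904 (Auto.Pos) and 0.923 (WT). The version of the scanner software, 9.1 or 9.5, divides each of the 3 replicated groups into 1 sample per version, and scan days follow the same division. These versions are called protocol 9.1 and protocol 9.5 below, after the version number of that software. Auto.Neg sample 2, Auto.Pos sample 1 and WT sample 1 were read with protocol 9.1, and the other 5 samples with protocol 9.5. WT sample 1 was scanned on day 1 (version 9.1.3.1), and Auto.Neg sample 2 and Auto.Pos sample 1 on day 2 (9.1.1.1). Auto.Pos sample 2 and WT sample 2 were scanned on day 3, and Auto.Neg sample 1, Non-edited and Edited on day 4. Differences within a protocol therefore cross scan days, except Auto.Pos minus Auto.Neg in 9.1 and Auto.Pos minus WT in 9.5. The submitters' series table disagrees with the scanner files: 10 of its 16 columns fit the array of another label better than their own, and 2 run in the reverse direction. Some of these fits cross groups: columns labelled Auto.Pos sample 1 fit WT sample 1, and those labelled WT sample 2 fit Auto.Neg sample 1. Which attribution is right is not known. The scanner files and their labels were used throughout. All 10 markers of B cells fixed for the check were above background on both arrays of all 8 samples, with a mean log2 ratio of 4.10 to 4.85. The 7 markers of T cells averaged -2.61 to -2.06.

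Each probe has 60 bases, and 7 of the genes are read by 1 probe, whereas Cd180, Tlr4 and Tlr3 have a pair. The probes for Ly86 and Tlr7 and the pairs for Cd180 and Tlr4 are shown because the results below turn on them. Coordinates are those of the scanner files on mouse build mm7, no exon annotation of that build was used here, and the leading 30 bases of each probe are printed in lower case, 5′ to 3′.
Ly86, A_51_P465350, chr13:36840704-36840763, plus strand: cctgagtagtcttgaagccctattgtagta
Tlr7, A_51_P371710, chrX:162079619-162079678, minus strand: acctaggacatgccttggtacctgaagttt
Cd180 brighter probe, A_52_P237087, chr13:99832793-99832852, plus strand: ctatcatctgacacatagtacttcataaac
Cd180 dimmer probe, A_52_P258617, chr13:99834860-99834919, plus strand: gcacttgctcaaacatttactttttagaat
Tlr4 brighter probe, A_51_P300806, chr4:66276388-66276447, plus strand: tgtgatagggctttaaatagttgagctaat
Tlr4 dimmer probe, A_52_P24230, chr4:66363220-66363279, plus strand: gaaccaagagaactttaacgcttacatctg
The Cd180 probes start 2067 bases apart and the Tlr4 probes 86832 bases apart. The Tlr3 probes start 280 bases apart.

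Cd180, Tlr1 and Ly86 were the members furthest above the reference in every group. Samples 1 and 2 of each replicated group are given in that order below. The Cd180 ratio was 5.17 and 6.43 (Auto.Neg), 6.46 and 5.81 (Auto.Pos), 5.71 and 5.46 (WT), 6.19 (Non-edited) and 6.07 (Edited). This is 36.1-fold to 88.3-fold over the reference, and 0.235% of all genes had a higher mean ratio over the 8 samples. The lowest and one of the highest Cd180 values belong to the same group, Auto.Neg, with a mean of 5.80 ± 0.89 (SD, n = 2).

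Ly86, the partner of CD180, had ratios of 3.75 and 4.66 (Auto.Neg), 4.99 and 4.75 (Auto.Pos), 4.86 and 4.84 (WT), 4.37 (Non-edited) and 5.05 (Edited). The mean was 25.3-fold over the reference and 0.669% of genes were higher. Auto.Neg sample 1 was the lowest of the 8 samples, and both Auto.Neg values lay below all values of Auto.Pos and WT. The WT samples differed by 0.02, while the Auto.Neg samples differed by 0.91 (9.5 minus 9.1 in protocol version, -0.91).

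The receptors of bacterial lipoproteins were all above the reference in all 8 samples. Tlr1 ratios were 5.68 and 5.08 (Auto.Neg), 5.47 and 5.72 (Auto.Pos), 5.69 and 5.93 (WT), 5.80 (Non-edited) and 5.88 (Edited), a mean of 50.5-fold. Tlr6 ratios were 3.54 and 3.58 (Auto.Neg), 3.13 and 3.62 (Auto.Pos), 3.53 and 3.20 (WT), 3.43 (Non-edited) and 3.69 (Edited). Tlr2 ratios were 2.92 and 2.57 (Auto.Neg), 2.32 and 2.77 (Auto.Pos), 2.95 and 2.27 (WT), 3.14 (Non-edited) and 2.98 (Edited). The ranges over 8 samples were 0.85 for Tlr1, 0.57 for Tlr6 and 0.87 for Tlr2, below the median range of 0.92 over all genes.

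Tlr4, the lipopolysaccharide receptor, was close to the reference in every sample. Its brighter probe gave 0.53 and 0.96 (Auto.Neg), 1.00 and 0.59 (Auto.Pos), 0.35 and 0.74 (WT), 0.63 (Non-edited) and 0.42 (Edited). Both channels of that probe were above background on 16 of 16 arrays. The dimmer probe was above background on 1 of 16 arrays in the sample channel, and gives no second reading of the gene.

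Tlr3, the receptor of double-stranded RNA, was near the detection limit. Its brighter probe was above background on 7 of 16 arrays in the sample channel and on 0 of 16 in the reference channel. The sample channel was above background on both arrays in Auto.Neg sample 1, Non-edited and Edited, on 1 array in WT sample 1, and on none in Auto.Neg sample 2, the Auto.Pos samples and WT sample 2. Its ratios lay between 0.14 and 0.53. Where neither channel was above background they bound the level in neither direction, and no fold between groups is read from them.

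Of the endosomal receptors with a clear signal, Tlr7 varied most among all 10 genes. Its ratios were 3.50 and 1.28 (Auto.Neg), 2.28 and 2.48 (Auto.Pos), 1.59 and 2.45 (WT), 2.81 (Non-edited) and 3.20 (Edited). The Auto.Neg samples were the highest and the lowest of all 8, with a mean of 2.39 ± 1.57 (SD, n = 2). The range of 2.22 was exceeded by 5.21% of genes.

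Tlr9, the receptor of unmethylated CpG DNA, had ratios of 1.20 and 1.88 (Auto.Neg), 2.05 and 1.06 (Auto.Pos), 1.85 and 1.29 (WT), 1.71 (Non-edited) and 1.41 (Edited). The group means of 1.54 ± 0.48, 1.55 ± 0.70 and 1.57 ± 0.39 (SD, n = 2 each) for Auto.Neg, Auto.Pos and WT lay within 0.03 of each other. Myd88, the shared adaptor, had ratios of 0.84 and 0.19 (Auto.Neg), 0.30 and 0.51 (Auto.Pos), 0.39 and 0.85 (WT), 0.79 (Non-edited) and 0.91 (Edited). Its mean over the samples was 0.60, and with median centring of the arrays in place of loess normalization it was -0.07, so its side of the reference depends on the normalization.

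**Figure D1:**
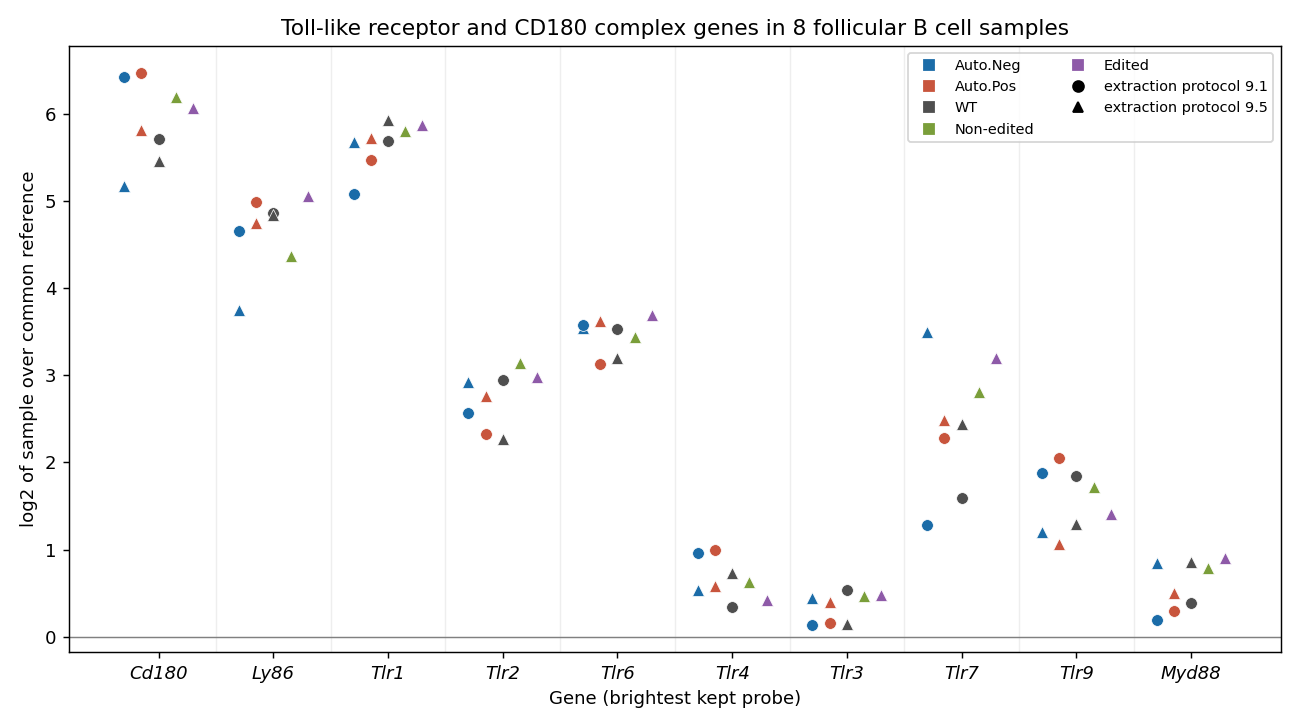
Log2 ratio of each sample over the common reference (vertical axis) for the 10 genes (horizontal axis, brightest kept probe). Colours mark the 5 groups, circles protocol 9.1 and triangles protocol 9.5; each point is the mean of a dye-swap pair. Cd180 lies between 5.17 and 6.46 and Tlr3 between 0.14 and 0.53, and the points of Tlr7 spread most, from 1.28 to 3.50.

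Both probes of Cd180 were above background in the sample channel on 16 of 16 arrays, but they gave different ratios. The brighter probe averaged 5.91 and the dimmer 1.68 over the 8 samples. The reference channel of the dimmer probe was above background on only 8 of 16 arrays. The dimmer probe gave 1.39 and 1.32 (Auto.Neg), 1.47 and 1.69 (Auto.Pos), 1.91 and 1.58 (WT), 1.86 (Non-edited) and 2.25 (Edited). That channel was above background on both arrays in 2 of 8 samples, so no order of the samples and no group difference is read from the dimmer probe. Taken as they stand, its differences ran opposite to those of the brighter probe in Auto.Pos minus WT (-0.16 against 0.56) and Auto.Neg minus WT (-0.39 against 0.22). They did so too in Edited minus Non-edited (0.39 against -0.12), and ran the same way in Auto.Pos minus Auto.Neg (0.23 against 0.34).

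**Figure D2:**
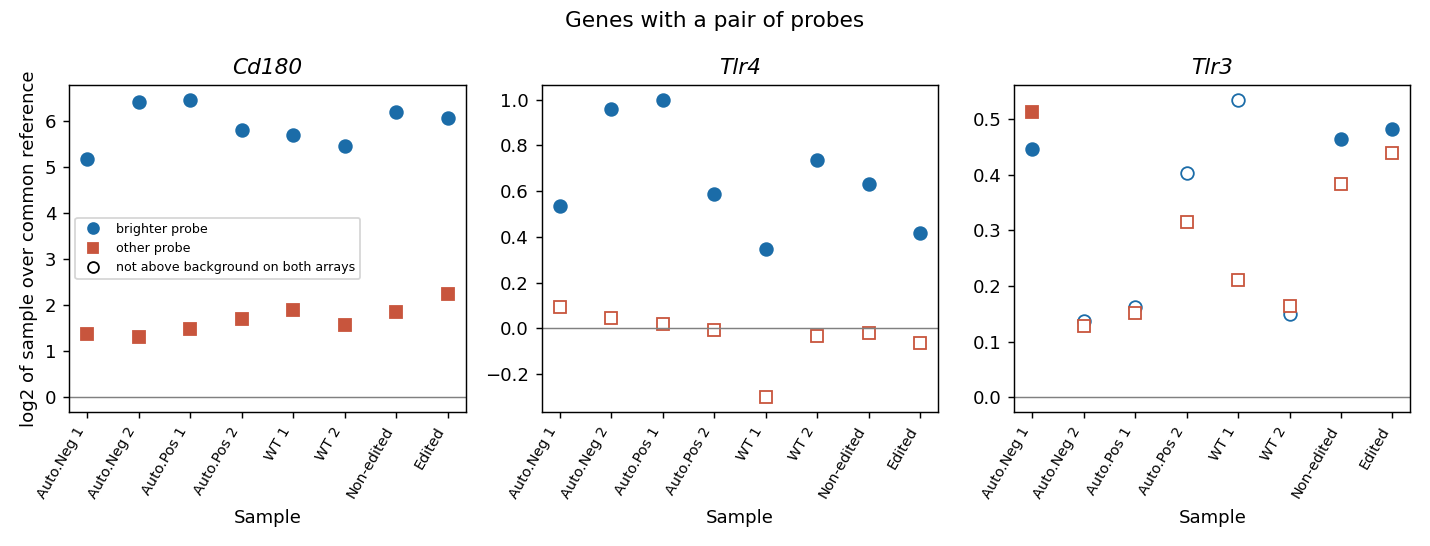
Log2 ratio over the reference (vertical axes, on separate scales) in the 8 samples (horizontal axes) for both probes of Cd180, Tlr4 and Tlr3. Filled symbols mark samples in which the sample channel was above background on both arrays. The Cd180 probes are filled throughout and lie apart, at means of 5.91 and 1.68, while the dimmer Tlr4 probe is open in all 8 samples.

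Several members differed between the dye orientations. Tlr4 was higher on the array with the sample in Cy3 in 8 of 8 samples, by a mean of 0.77 and by up to 1.57. Tlr9, Myd88 and Ly86 were lower on that array in 8 of 8 samples, by means of 0.53, 0.49 and 0.56. Tlr2, Tlr4 and Myd88 are each printed in 10 spots per array, and their median SD between spots of an array was only 0.08, 0.06 and 0.08. The gap between orientations was larger than this spread in 8 of 8 samples for Tlr4 and for Myd88. For Tlr2 it was 0.18 or less in all samples but WT sample 2, where the Cy3 array was lower by 1.03. Averaging the 2 arrays of a sample cancels a dye effect only where it is equal on both arrays. The Tlr4 gap was not alike in all samples, at 0.16 and 0.07 in WT and 1.57 and 0.95 in Auto.Pos. What remains of a dye effect in the group differences was not tested.

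Setting Auto.Pos against Auto.Neg asks whether B cells whose receptor meets its self antigen differ in these genes from cells whose antigen is absent. By the labels the groups also differ in the transgenic light chain, and a Thy-1 Knockout is named only for the Auto.Neg mice of the pair, so that antigen, receptor and background cannot be told apart. None of the 10 genes passed limma's test at an adjusted p of 0.05, against 0.0147% of all genes, which is 3 of 20469. None had an unadjusted p under 0.05, against 213 of all genes, and every adjusted p was 0.9999. The members divided into 5 higher and 5 lower, with a median difference of 0.003 beside 0.02 over all genes. Tlr3, from which no fold is read, is counted among the lower.

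Ly86 had the largest of these differences, 4.87 ± 0.17 in Auto.Pos against 4.21 ± 0.64 in Auto.Neg (SD, n = 2 each). The difference of 0.66 (SE 0.34, 95% interval -0.21 to 1.54, adjusted p = 0.9999 by limma) is 1.59-fold, and 3.74% of genes differed by more. It was the only member whose groups did not overlap, where 19.2% of all genes do not overlap. Within slide 2, which holds a sample of each group, the Ly86 difference was 0.34. Between the samples of protocol 9.5, which differ in slide and scan day, it was 0.99. Without Auto.Neg sample 1 the difference was 0.21, and without Auto.Neg sample 2 it was 1.12, so the size rests on which Auto.Neg sample is used.

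Cd180 was 0.34 higher in Auto.Pos by its brighter probe (SE 0.48, interval -0.89 to 1.57), 0.04 within protocol 9.1 and 0.64 within protocol 9.5. Tlr1 was 0.22 higher (SE 0.28) and Tlr2 and Tlr6 0.20 and 0.18 lower (differences -0.20 and -0.18, SE 0.33 and 0.26). Of the remaining 5 genes, Tlr4, Tlr7, Tlr9 and Myd88 had group means within 0.12 of each other. Their intervals are wide: that of Tlr7 runs from -1.97 to 1.95, and that of Tlr9 from -1.13 to 1.16. No difference is read from Tlr3, whose sample channel was above background on 0 of 4 Auto.Pos arrays. The scanner's log ratio put it at -1.05.

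Against WT, Auto.Pos again gave no call. None of the 10 members passed at an adjusted p of 0.05, as for all genes (0%), and none had an unadjusted p under 0.05, where 1152 of all genes had one. Members divided into 5 higher and 5 lower with a median of -0.004, beside 0.06 over all genes, Tlr3 again being counted among the lower. Cd180, read by its brighter probe, was the only member whose groups did not overlap, where 29.6% of all genes do not overlap. Its mean was 6.14 ± 0.46 in Auto.Pos and 5.58 ± 0.18 in WT (SD, n = 2 each), a difference of 0.56 (SE 0.48, interval -0.67 to 1.79, limma adjusted p = 0.9998). The difference was 0.76 within protocol 9.1 and 0.36 within protocol 9.5, but -0.82 when the arrays were scaled to a common spread. It was 0.23 without Auto.Pos sample 1 and 0.88 without Auto.Pos sample 2. Ly86 differed by 0.02 (interval -0.85 to 0.89), and Tlr7 by 0.36 (interval -1.60 to 2.32).

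Auto.Neg against WT gave no call among the members either. None of the members passed at an adjusted p of 0.05, as for all genes (0%), and none had an unadjusted p under 0.05, where 942 of all genes had one. For 3 members the groups did not overlap, where 25.0% of all genes do not overlap, a share like that of the members. They were Ly86, with a difference of -0.65 (SE 0.34, interval -1.52 to 0.23), Tlr1, with -0.43 (SE 0.28, interval -1.14 to 0.28), and Tlr6, with 0.19 (SE 0.26, interval -0.46 to 0.85). The Ly86 difference was -0.20 within protocol 9.1 and -1.09 within protocol 9.5, each between samples of different slides and scan days. It was -0.19 without Auto.Neg sample 1 and -1.10 without Auto.Neg sample 2. The Tlr1 difference was -0.61 and -0.25 within the protocols and 0.06 on the arrays with the sample in Cy3 alone. It was -0.13 without Auto.Neg sample 2 and -0.73 without Auto.Neg sample 1. The Tlr6 difference was 0.04 within protocol 9.1 and 0.34 within protocol 9.5, and -0.29 on the arrays with the sample in Cy5 alone. It was 0.024 without WT sample 2 and 0.36 without WT sample 1. Auto.Pos is common to the first and second comparison, and each group serves in 2 of the 3, so these differences are not independent of each other.

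**Figure D3:**
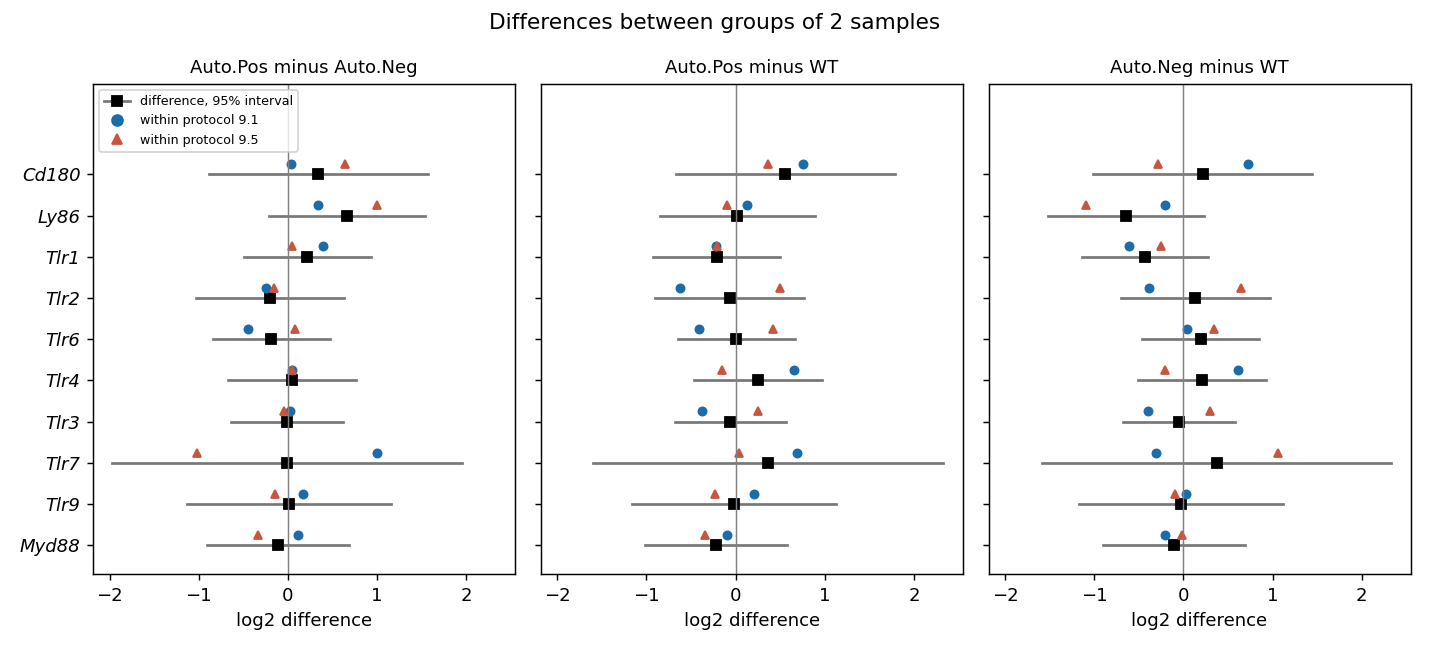
Difference in log2 ratio (horizontal axes) between groups of 2 samples for the 10 genes in the 3 comparisons; squares give the difference with its 95% interval from limma, circles and triangles the single differences within protocols 9.1 and 9.5. All 30 intervals include 0, and for Tlr7 in Auto.Pos minus Auto.Neg the circle lies at 1.00 and the triangle at -1.02.

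Fewer cells of a type and less RNA per cell cannot be told apart in these bulk samples. Markers of macrophages and monocytes, which also express Tlr2, Tlr4, Cd180 and Ly86, were present: 13 of 15 were tested, and their mean log2 ratio was 1.11 and 2.09 (Auto.Neg), 2.23 and 1.53 (Auto.Pos), 2.13 and 2.12 (WT), 0.88 (Non-edited) and 1.15 (Edited). Of the 13, 8 were above the reference in all 8 samples, among them Csf1r (2.36 to 4.21) and Adgre1, 3 were below it in all 8 (Cd68, Mertk and Ccr2), and Fcgr1 and Cd163 lay on both sides. In Auto.Neg minus WT 12 of the 13 were lower, with a median of -0.57 (0.04 over all genes), beside Ly86 at -0.65. In Auto.Pos minus WT 9 were lower, with a median of -0.42 (0.06 over all genes), beside Ly86 at 0.02. In Auto.Pos minus Auto.Neg 10 were higher, with a median of 0.15 (0.02 over all genes), beside Ly86 at 0.66. None of the 13 passed limma's test in any of the 3 comparisons. Edited had the highest Ly86 ratio of the 8 samples, and its macrophage mean of 1.15 was above the 0.88 of Non-edited. The part of macrophages in the Ly86 values was not tested.

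Of 8 neutrophil markers 6 were tested, and their mean log2 ratio was 3.96 and 2.04 (Auto.Neg), 3.07 and 2.27 (Auto.Pos), 2.69 and 3.32 (WT), 2.49 (Non-edited) and 1.73 (Edited). The highest mean was that of Auto.Neg sample 1, the sample with the lowest Ly86 and Cd180 and the highest Tlr7 ratio. Mpo, a granule enzyme of neutrophil precursors, was 4.16 in that sample and -0.58 to 1.04 in the other 7. S100a8, S100a9, Camp and Ltf were lower in Auto.Neg sample 1 (4.78, 6.95, 3.50 and 2.98) than in WT sample 2 (4.80, 7.29, 4.32 and 3.33). Ngp was higher in Auto.Neg sample 1, at 1.40 against 0.50. In marginal zone B cells CD180 and Toll-like receptor responses are prominent. Of their 7 markers 5 were higher in Auto.Pos than in Auto.Neg, with a median of 0.29 (0.02 over all genes). In Auto.Neg minus WT 6 were lower, with a median of -0.49 (0.04 over all genes). None of the 7 passed limma's test in any of the 3 comparisons. In Auto.Pos minus WT 3 were higher and 4 lower, with a median of -0.13. The part of these cells in the values of the members was not tested.

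Several members had different ratios in the samples read with protocol 9.1 and those read with 9.5, none past the threshold after adjustment. Scan days divide the samples the same way and no slide holds both versions, so version, scan day and slide cannot be told apart. Fitted with the group means, the 9.5 minus 9.1 coefficient of Tlr9 was -0.74 (SE 0.15, interval -1.15 to -0.33, adjusted p = 0.093 by limma), with -0.68, -0.99 and -0.56 in Auto.Neg, Auto.Pos and WT. The 3 samples of protocol 9.1 lay between 1.85 and 2.05 and the 5 samples of protocol 9.5 between 1.06 and 1.71, without overlap. Cd180 was lower with protocol 9.5 by -0.72 (SE 0.23, adjusted p = 0.162), Myd88 higher by 0.44 (SE 0.15, adjusted p = 0.178) and Tlr7 higher by 1.09 (SE 0.42, adjusted p = 0.205), each in the same direction in all 3 groups. None of the 10 members passed after adjustment, nor did any of the 20469 genes, of which 5247 had an unadjusted p under 0.05 (25.6%). Of the members Tlr9, Cd180 and Myd88 had one. How many of all genes divide by version as Tlr9 does, or keep the same direction in all 3 groups, was not counted. The fit has 2 residual degrees of freedom, and it was added after the values by version had been seen.

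The channels behind these ratios did not move alike. For Tlr9 the sample channel was 11.92 to 12.77 in log2 intensity with protocol 9.1 and 11.01 to 11.87 with 9.5, while the reference channel overlapped, at 10.08 to 10.73 and 9.60 to 10.81. For Cd180 the sample channel was 15.58 to 15.74 with protocol 9.1 and 14.34 to 15.27 with 9.5. For Myd88 the reference channel differed without overlap, at 12.14 to 12.32 with protocol 9.1 and 11.72 to 11.78 with 9.5, while the sample channel overlapped. For Tlr7 the reference channel was 8.25 to 8.96 with protocol 9.1 and 7.81 to 8.17 with 9.5. The gap between the Auto.Neg samples in Tlr7 lay mostly in the sample channel, which was 11.40 in sample 1 and 9.53 in sample 2.

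**Figure D4:**
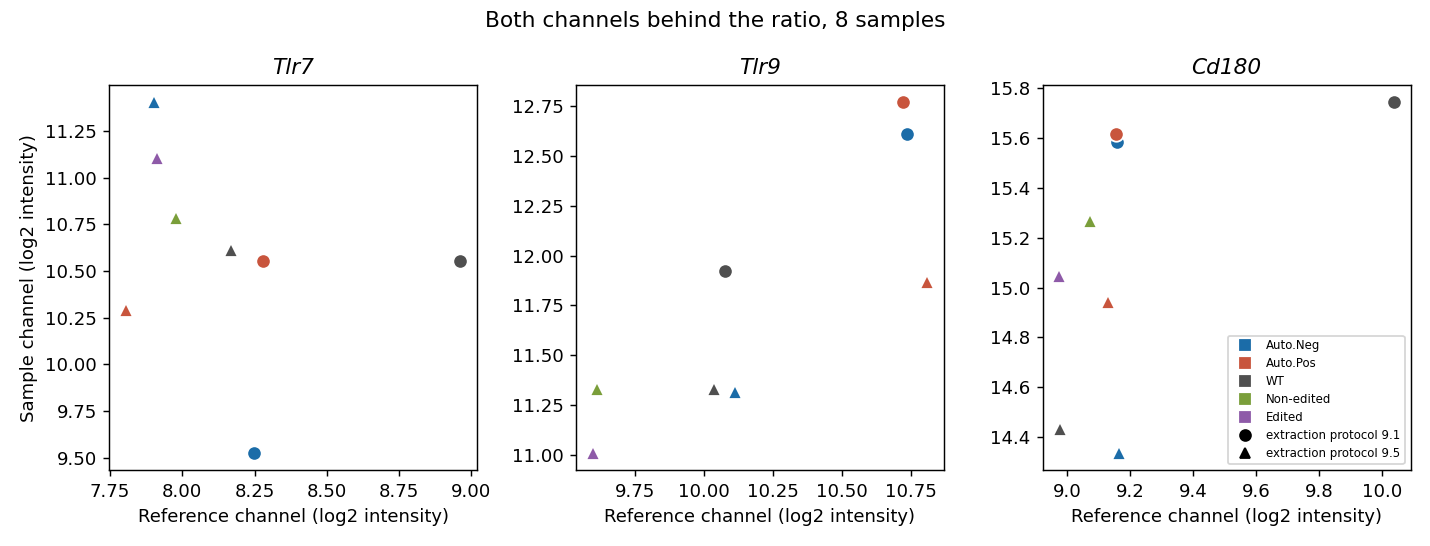
Log2 intensity of the sample channel (vertical axes) against that of the reference channel (horizontal axes) for Tlr7, Tlr9 and Cd180, with axes that do not start at 0; intensities were scaled to common brightness between arrays. Colours mark groups, circles protocol 9.1 and triangles 9.5. In the Tlr9 panel all 3 circles, at 11.92 or above, lie over all 5 triangles, at 11.87 or below.

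With a protocol term in the model the differences between groups keep their size, since each group has 1 sample per version, and their errors change. The Ly86 difference of Auto.Pos from Auto.Neg then had an SE of 0.27 (adjusted p = 0.9998 by limma), and that from Auto.Neg to WT an SE of 0.27 (adjusted p = 0.545). For Tlr7 the single differences lie far apart: Auto.Pos minus Auto.Neg was 1.00 within protocol 9.1 and -1.02 within protocol 9.5, with a mean of -0.011.

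Edited and Non-edited were 1 sample each, so their difference has no replicate check of its own. When limma took the spread from the groups with 2 samples, on the assumption that single samples vary alike, it called none of the 20469 genes, and 241 genes but no member had an unadjusted p under 0.05. None of the 10 members was at least 2-fold apart the same way in both dye orientations, where 1.40% of all genes were. Ly86 differed most, 5.05 in Edited and 4.37 in Non-edited, a difference of 0.83 with the samples in Cy5 and 0.54 with them in Cy3. The mean difference of 0.69 had an interval of -0.54 to 1.92 in that fit (limma adjusted p = 0.99998). Beside it, 6 of 7 marginal zone markers were higher in Edited in both orientations, with a mean log2 ratio of 3.21 against 2.46, and Cd9 and S1pr3 were higher by 2.51 and 1.24. Of the 13 macrophage markers 6 were higher and 2 lower in both orientations, Adgre1 by 1.49 on average, and 5 of 6 neutrophil markers were lower. Their part in the Ly86 difference was not tested. Tlr7 was next, at 3.20 and 2.81, with 0.40 and 0.38 in the orientations. Tlr9 was 1.41 and 1.71, a difference of -0.42 and -0.18. Cd180 differed by -0.12 on its brighter probe. In 8 of 10 members both orientations had the same sign, where 69.7% of all genes did, and the exceptions were Tlr1 and Tlr3. The median over the members was 0.05, beside -0.03 over all genes.

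**Figure D5:**
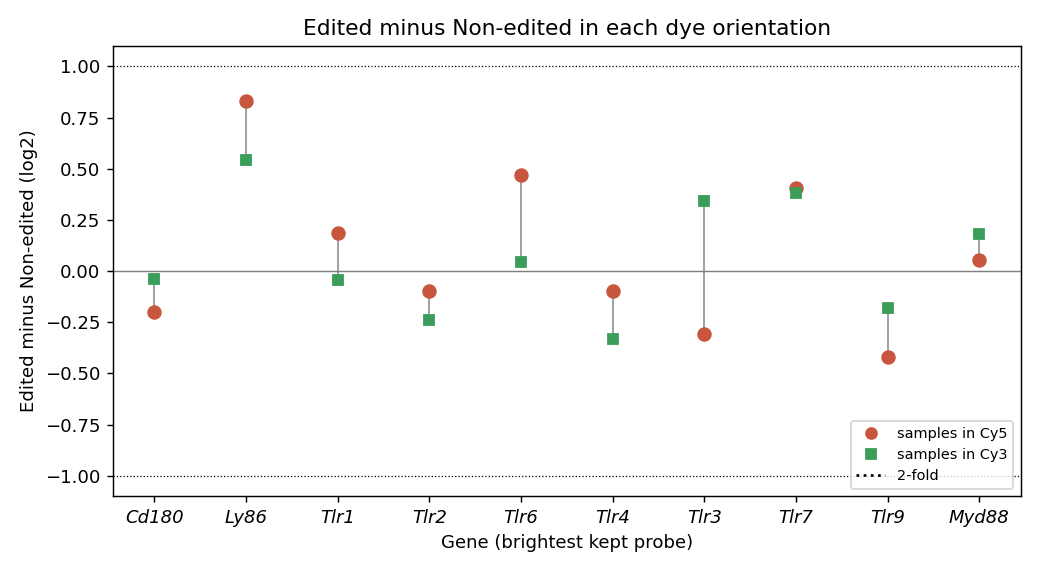
Edited minus Non-edited in log2 ratio (vertical axis) for the 10 genes, with circles for the arrays with the samples in Cy5 and squares for those in Cy3; dotted lines mark 2-fold. Ly86 has the largest values, 0.83 and 0.54, and no gene reaches a dotted line.

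The rest of the pathway was followed through 40 genes of co-receptors, chaperones, adaptors, kinases, transcription factors and CD180 signalling partners. Of these 37 are on the array, without Tlr11, Tlr12 and Tlr13, and 35 were tested, Tlr8 and Ticam2 being too dim. None of the 35 passed in any of the 3 comparisons, and those with an unadjusted p under 0.05 numbered 0, 2 and 1 (0%, 5.71% and 2.86%), beside 1.04%, 5.63% and 4.60% of all genes. In Auto.Pos minus Auto.Neg 13 were higher and 22 lower, with a median of -0.12 beside 0.02 over all genes. Against WT the counts were 14 higher and 21 lower for Auto.Pos, and 16 higher and 19 lower for Auto.Neg.

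Traf3, a ubiquitin ligase that restrains B cell survival signalling and serves Toll-like receptors, had the largest difference from WT. Its ratio was -0.21 and -0.12 (Auto.Neg), -0.071 and -0.23 (Auto.Pos), 0.61 and 1.44 (WT), 0.015 (Non-edited) and 0.16 (Edited). The WT samples lay above all 4 samples of Auto.Neg and Auto.Pos, groups that do not overlap with WT in 25.0% and 29.6% of all genes. The differences were -1.17 for Auto.Pos (SE 0.32, adjusted p = 0.637 by limma) and -1.19 for Auto.Neg (SE 0.32, adjusted p = 0.846 by limma). These share the WT samples. Tab2, an adaptor of the kinase Tak1, was 0.43 in Auto.Pos and 0.96 in WT on average, a difference of -0.53 (SE 0.19, adjusted p = 0.834 by limma). Slc15a4, an endosomal transporter that Tlr7 and Tlr9 need, differed from WT by -0.68 in Auto.Pos and -0.77 in Auto.Neg (SE 0.39 each).

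Hsp90b1, the chaperone that folds Toll-like receptors, differed most between Auto.Pos and Auto.Neg, by -0.93 (SE 0.65), and was 0.85 higher in Auto.Neg than in WT. Irf7, an interferon regulatory factor downstream of Tlr7 and Tlr9, spread as Tlr7 did. Irf7 ratios were 3.99 and 0.49 (Auto.Neg), 1.14 and 2.30 (Auto.Pos), 1.44 and 1.78 (WT), 2.96 (Non-edited) and 2.87 (Edited). The Auto.Neg samples were again the highest and the lowest, so Auto.Pos minus Auto.Neg was -0.52 with an SE of 1.17, and 0.64 and -1.69 within the protocols. Ly96, which encodes the Tlr4 partner MD-2, was below the reference in all 8 samples and differed by -0.58 (SE 0.55). Tirap, an adaptor of Tlr2 and Tlr4, differed by 0.44 (SE 0.24), Irak1, a kinase recruited by Myd88, by -0.40 (SE 0.57), and Tab1, a subunit of the Tak1 complex, by -0.37 (SE 0.29). Against WT, Auto.Pos differed by -0.89 in Vav1 and -0.84 in Pik3ap1, signalling proteins shared with the antigen receptor, and by -0.76 in Ly96, and Auto.Neg by -0.66 in Vav1, 0.63 in Irf7 and 0.53 in Tab1.

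For the 3 members with the widest range, the genes with the most similar pattern over the 8 samples were listed. Tlr7 was followed most closely by Zfp85 (Pearson r of 0.964), 4930481B07Rik (0.961) and an unnamed probe (0.952). Ly86 was followed by Scp2 (0.986), D630003M21Rik (0.977) and an unnamed transcript (0.966), and Cd180 by Dnajc1 (0.962), Olfr1507 (0.961) and an unnamed transcript (0.960). These are the best of 20469 genes over 8 values that share slides and protocol versions. Zfp85 itself ranged only from 0.11 to 0.35, D630003M21Rik from -0.11 to 0.09 and Olfr1507 from -0.02 to 0.27, all close to the reference. Scp2 ranged from -1.11 to 0.46, and the unnamed transcript listed for Cd180 from 1.14 to 3.41.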

How the data were processed

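RNA of 8 follicular B cell samples and of the common reference was amplified from 100 ng and labelled with Cy3 or Cy5, per the labels' protocols. The deposited scanner files hold spot and background intensity per channel, and a log10 ratio made by the scanner software, per the file headers; the software was Agilent Feature Extraction in version 9.5.1.1, 9.1.3.1 or 9.1.1.1. The deposited series table holds a log2 ratio per array with column medians of -0.02 to 0.02; the submitters' processing notes name limma, without further steps. Its scale matches the scanner ratios, and its columns were turned to the array they matched.

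Intensity was corrected with limma 3.58.1 in R 4.3.3 (with data.table in version 1.17.8), by normexp with an offset of 50, then loess within each array. Control spots had weight 0 in the loess, and spots flagged as outliers were dropped. Spots of a probe were averaged, ratios expressed as sample over reference, and dye-swap pairs averaged. A probe was kept if its sample channel was well above background on both arrays of at least 2 samples, and a gene was read by its brightest kept probe. Channel intensities were scaled between arrays by Aquantile. Symbols were updated through RefSeq accessions where they matched. limma fitted 1 mean per group on all 8 samples, with p-values adjusted by Benjamini-Hochberg over all genes and called at 0.05; the number of arrays limits the precision. Edited minus Non-edited was called at 2-fold in both dye orientations. The genes named are all members, from the pathway list the 6 with the largest difference per comparison and any that passed, and the 3 genes most alike in pattern to each of the 3 widest-ranging members. The members, the pathway list and the marker lists were chosen with earlier results of these data known. The fit was tested on simulated data.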

Additional observations from a re-analysis of the deposited data

Results flagged for a closer look

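Tlr7 differed in opposite directions between Auto.Pos and Auto.Neg in the samples read with different versions of the scanner software. The difference was 1.00 within protocol 9.1 and -1.02 within protocol 9.5. Each value is 1 sample against 1 sample, and the difference between them was not tested.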

How the results depend on the processing

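No member was called in any comparison under any alternative but the submitters' series table taken as labelled, in which 7 were called in Auto.Pos minus Auto.Neg and 8 in Auto.Neg minus WT, with 7704 and 6962 genes called in all. There 2 columns of Auto.Neg have the opposite sign of the arrays they match, which by construction brings the Auto.Neg mean ratios near 0; it gave Tlr2 3.03, Tlr3 0.73, Tlr6 3.74, Tlr7 2.16 and Myd88 0.46 in Auto.Pos minus Auto.Neg, Tlr2 0.23, Tlr4 -0.21, Tlr7 -1.11 and Tlr9 0.16 in Auto.Pos minus WT, and Tlr2 -2.81, Tlr4 -0.55, Tlr6 -3.65, Tlr7 -3.27 and Cd180 -5.49 in Auto.Neg minus WT, each opposite to the reported direction. As labelled, some columns of that table also fit arrays of other groups. With its columns matched to arrays the table called no member, 14 genes in Auto.Pos minus WT and 1 in Auto.Neg minus WT. It turned Tlr3 in Auto.Neg minus WT to 0.027. The 3 genes called in Auto.Pos minus Auto.Neg became 0 without a filter on dim probes, 1 with median centring, 0 with scaling between arrays, 6 with the protocol version as a block, and 12 and 0 on the Cy5 and Cy3 arrays alone; they were 0 to 0 when each sample was left out. Auto.Pos minus WT called 15 genes with the scanner's log ratio, 6 with scaling and 72 on the Cy5 arrays alone, where Auto.Neg minus WT called 60, all against 0. The scanner's log ratio put 808 genes at 2-fold in Edited minus Non-edited against 284, with 0 members in each.

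Members that were not called changed direction as follows, and the cause was not tested. The scanner's log ratio gave Tlr9 -0.017 in Auto.Pos minus Auto.Neg and Tlr3 0.72 in Auto.Neg minus WT. Median centring, which moved the median of all genes in Auto.Pos minus WT from 0.06 to -0.06, gave Tlr3 0.029, Tlr4 -0.074 and Tlr9 -0.16 in Auto.Pos minus Auto.Neg, and Tlr6 -0.15 and Ly86 -0.11 in Auto.Pos minus WT. Scaling between arrays gave Tlr1 -0.27, Tlr9 -0.11 and Cd180 -0.11 in Auto.Pos minus Auto.Neg, Tlr6 -0.67, Tlr7 -0.13, Cd180 -0.82 and Ly86 -1.09 in Auto.Pos minus WT, and Tlr2 -0.065, Tlr6 -0.23 and Cd180 -0.70 in Auto.Neg minus WT. The mean of both Cd180 probes, which takes in the dimmer probe set aside above, gave -0.086 in Auto.Neg minus WT. Arrays with the sample in Cy5 alone, a choice made after seeing the data as were the Cy3 arrays and the single protocol versions, gave Tlr3 0.047 and Tlr4 -0.14 in Auto.Pos minus Auto.Neg, Tlr4 -0.32, Tlr6 -0.45 and Tlr9 0.24 in Auto.Pos minus WT, and Tlr2 -0.21, Tlr4 -0.18, Tlr6 -0.29 and Tlr9 0.093 in Auto.Neg minus WT. Arrays with the sample in Cy3 alone gave Tlr7 0.056 and Tlr9 -0.12, then Tlr1 0.12, Tlr2 0.23 and Ly86 -0.083, then Tlr1 0.064 and Tlr3 0.061, in the same order of comparisons.

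Leaving out 1 sample at a time, where the lone sample of a group is assumed to vary like the others, gave ranges that cross 0. In Auto.Pos minus Auto.Neg they were -0.083 to 0.52 for Tlr1, -0.42 to 0.021 for Tlr2, -0.16 to 0.14 for Tlr3, -0.17 to 0.26 for Tlr4, -0.43 to 0.063 for Tlr6, -1.12 to 1.1 for Tlr7, -0.48 to 0.51 for Tlr9, -0.44 to 0.22 for Myd88 and -0.29 to 0.97 for Cd180, and 0.21 to 1.12 for Ly86, which kept its sign. In Auto.Pos minus WT they were -0.40 to 0.27 for Tlr2, -0.25 to 0.13 for Tlr3, -0.24 to 0.26 for Tlr6, -0.065 to 0.79 for Tlr7, -0.51 to 0.48 for Tlr9, -0.45 to 0.011 for Myd88 and -0.10 to 0.14 for Ly86. In Auto.Neg minus WT they were -0.20 to 0.47 for Tlr2, -0.24 to 0.14 for Tlr3, -0.0064 to 0.42 for Tlr4, -0.74 to 1.48 for Tlr7, -0.37 to 0.31 for Tlr9, -0.44 to 0.22 for Myd88 and -0.41 to 0.84 for Cd180.

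The labels do not say that sample numbers pair samples. With the number as a block, the replicate block called 0 genes in each of the 3 comparisons, against 3 in Auto.Pos minus Auto.Neg without it. Same-numbered samples deviated from their group means with r of -0.79 in Auto.Pos and Auto.Neg, 0.25 in Auto.Pos and WT and -0.28 in Auto.Neg and WT. Crossing the numbers of Auto.Neg gives the protocol version as the block, with 6, 0 and 0 genes called. A random block for slide could not be estimated, because only 1 of 7 slides holds more than 1 sample. Signal over background limits Tlr3 and the reference side of the dimmer Cd180 probe.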
